A study of Mus musculus with 2 samples.

Results

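The cells described are femur cells outside the cartilage class that carried transcripts of Cd200, set against those with no Cd200 count. Of 658 sorted wells, 653 had at least 500 detected genes and at most 20% of their counts from mitochondrial genes. A well was taken as non-cartilage when Ucma, Matn3, Col9a1 and Lect1, transcripts of chondrocytes, summed to under 4000 CPM, the count scaled to a well total of 1000000, which left 473 wells. The groups were then chosen by their measured Cd200 level, so Cd200 itself is given without a test. Among these wells 106 had a Cd200 CPM of 50 or more and are called Cd200-expressing (58 from animal 1 and 48 from animal 2). A further 326 had 0 Cd200 counts and are called Cd200-silent (152 and 174). The other 41 wells (29 and 12) lay in between, 27 of them with a single Cd200 count. A second comparison left out every well in which Eng, Thy1 or Enpep reached 20 CPM, and held 87 expressing wells (44 and 43) and 242 silent wells (112 and 130).

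All cells came from 2 C57/B6 littermates of the genotype CTSK-cre+ mTMG, taken on postnatal day 6. Cre recombinase driven by the promoter of cathepsin K (Ctsk) switches this reporter from a membrane-bound red to a membrane-bound green protein, so a sorted cell had Ctsk promoter activity itself or descends from one that did. Digested femurs were stained with antibodies and single GFP-positive cells were sorted into wells, animal 1 into plate 47 and animal 2 into plate 48, so that animal and plate cannot be told apart. There is 1 group of animals and no treated or mutant arm, and both Cd200 groups come from the same 2 plates.

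CD200 is a membrane glycoprotein of the immunoglobulin superfamily whose receptor on myeloid cells restrains their activation. It is also one of the antigens used to separate skeletal stem and progenitor cells by flow cytometry, and the study that made these data, which describes a periosteal stem cell, took CD200-positive cells lacking CD105 (endoglin, the product of Eng), THY1 and 6C3 (the product of Enpep). The periosteum is the fibrous and cellular sheath of bone, and its progenitors form bone directly, without a cartilage template, and supply cells to a fracture callus. The question addressed by the comparison is which other transcripts go with Cd200 in reporter cells that are not chondrocytes. The gene lies on the minus strand of chromosome 16, at positions 45382135 to 45409053 (GRCm38, GENCODE vM21, as for every position given).

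Depth differed between the groups. The median total was 116142 counts per expressing well in animal 1 and 144260 in animal 2, against 94977 and 99167 in silent wells. Expressing wells also had more detected genes, with medians of 2349.5 and 2418.5 against 2124.5 and 2033.5. With every well thinned to 20000 counts the medians were still 1719.5 and 1700 genes against 1568 and 1479.5, so the gap in genes was present at equal depth. Spp1, which leads the comparison, had a fitted log2 fold change of 3.83 on the thinned wells and of 3.92 on all counts. Mitochondrial shares were close, with medians of 3.47% and 3.26% in expressing and 3.56% and 3.42% in silent wells. At the depth of the silent wells, 0 counts allow a median of up to 31.6 CPM of Cd200 in animal 1 and 30.3 CPM in animal 2 (3 counts of the well's total, counting error only), and in 28 and 20 silent wells they allow 50 CPM or more. The same 95 well barcodes were used on both plates, and the plate given in each well's name keeps the cells apart.

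Cd200 was carried by 24.3% of non-cartilage wells in animal 1 (58 of 239, exact 95% binomial interval 18.97% to 30.2%) and by 20.5% in animal 2 (48 of 234, 15.5% to 26.3%). These intervals cover counting of wells only. With wells thinned to 20000 counts the shares at 50 CPM were 28.4% (67 of 236) and 22.2% (52 of 234). At that depth 1 Cd200 count already makes 50 CPM, so these are shares of wells with any count left. They are not the same limit at equal depth. Because Cd200 chose the wells, its own levels are a description. The median Cd200 level of expressing wells was 442 CPM in animal 1, with a range from 51.1 to 2867 CPM, and 347 CPM in animal 2, with a range from 64.2 to 1466 CPM. The median was 46 counts in each animal. The 3 wells just inside the limit had 51.1, 53.7 and 64.2 CPM from 4, 4 and 7 counts, and the 3 just outside had 49.4, 48.6 and 48.3 CPM from 5, 7 and 1 counts. Of the cartilage wells left aside, 44.3% in animal 1 (35 of 79) and 30.7% in animal 2 (31 of 101) carried Cd200 at the same limit.

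The expressing wells differed from the silent ones in the same direction in both animals for many osteoblast, chondrocyte, fibroblast and S100 transcripts, but with 2 animals no gene passed the test. Counts were summed per animal and group and compared within animals by edgeR's quasi-likelihood test. Of 11140 genes tested, 0 (0.0%) passed a Benjamini-Hochberg adjusted p of 0.05. At an unadjusted p under 0.05 there were 108 higher (0.969%) and 245 lower (2.2%) in expressing wells. DESeq2's Wald test on the same sums passed 40 genes higher (0.425% of 9412 with an adjusted p) and 71 lower (0.754%). The edgeR fit on wells thinned to 20000 counts, in which every well weighs the same, passed 7 higher (0.0811% of 8634) and 11 lower (0.127%). The 7 were Spp1, Ibsp, Col2a1, Chad, Mia, 3110079O15Rik and Cst3, and the 11 were S100a6, Crip1, Tmsb4x, Mfap5, Ly6c1, Tppp3, Kera, Spon2, Fstl1, Mt1 and Krtdap. The levels below are therefore given per animal, and a gene is called neither raised nor lowered. For a count that needs no test, 339 genes (3.04%) were at least 2-fold higher in the expressing wells of both animals and 684 (6.14%) at least 2-fold lower, on CPM + 1. In 1998 genes (17.9%) both expressing sums lay above both silent sums, and in 2340 (21.0%) both lay below. Ratios of the 2 animals went together for abundant genes (Spearman 0.63 across 842 genes of 200 CPM or more) and hardly for all genes tested (0.15 across 11140). This is a description across genes, and genes are not independent replicates.

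**Figure D1:**
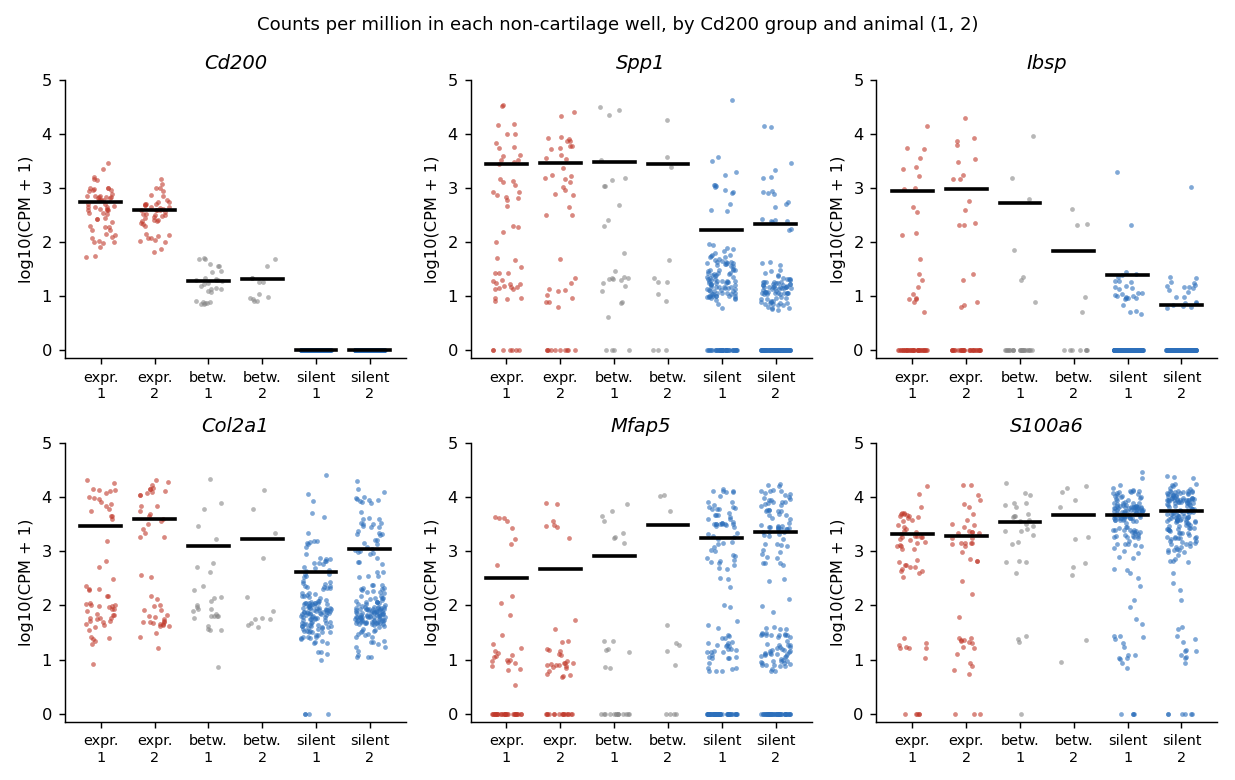
Each point is 1 non-cartilage well, plotted as log10(CPM + 1) for the Cd200-expressing, in-between and Cd200-silent groups of animals 1 and 2. Black bars are the CPM of each group's summed counts. The Cd200 panel shows the rule itself. Spp1 sums of expressing wells are 2733 and 2927 CPM against 165 and 211 CPM in silent wells, and Mfap5 and S100a6 lie lower in expressing wells.

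Among osteoblast genes, Spp1 had the smallest p of all genes tested. Spp1 encodes osteopontin, a phosphoprotein of bone matrix, and lies on chromosome 5, positions 104435118 to 104441050. Its summed level was 2733 CPM in animal 1 and 2927 CPM in animal 2 in expressing wells, against 165 and 211 CPM in silent wells. Both expressing sums stood above both silent sums, 16.5 and 13.8 times higher on CPM + 1. The fitted log2 fold change was 3.92 ± 0.20. Here and below ± is an approximate SE, the absolute log2 fold change divided by the square root of the test's F statistic. The adjusted p of Spp1 was 0.191 by edgeR's quasi-likelihood test. That call changed with the setting: Spp1 passed when the animal block was left out, when the expressing limit was 200 CPM, when Prg4 or Cytl1 wells were left out, on thinned wells, and by DESeq2. Single wells spread widely. Expressing wells ran from 0 to 34754 CPM around a median of 124 CPM in animal 1, and from 0 to 25544 CPM around 600.3 CPM in animal 2. Silent wells had medians of 13.97 and 6.45 CPM and reached 42285 and 13757 CPM, so the groups overlapped well by well. At 1000 CPM or more there were 19 of 58 and 21 of 48 expressing wells, against 9 of 152 and 6 of 174 silent wells. The in-between wells were as high as the expressing ones in their sums, at 2968 and 2754 CPM, from 8 of 29 and 3 of 12 wells at 1000 CPM or more.

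The other osteoblast genes lay on the same side. Ibsp encodes bone sialoprotein, a matrix protein of mineralising bone, and also lies on chromosome 5 (positions 104299171 to 104311469). It was at 865 and 949.7 CPM in expressing wells and at 23.5 and 5.79 CPM in silent wells. Its log2 fold change was 6.55 ± 1.01 (edgeR, adjusted p = 0.875), and 68.9% of all its silent counts came from 1 well. Sp7, the zinc-finger factor osterix that osteoblasts need to form, was at 174 and 88.0 CPM against 10.4 and 6.19 CPM, seen in 17 of 58 and 9 of 48 expressing wells and in 12 of 152 and 4 of 174 silent wells. Smpd3, a neutral sphingomyelinase required for mineralisation, was at 184 and 206 CPM against 12.3 and 6.39 CPM. Runx2, the factor that starts the osteoblast programme, was at 96.3 and 104 CPM against 42.2 and 19.4 CPM. Alpl, the alkaline phosphatase that frees phosphate for mineral, was at 156 and 204 CPM against 88.9 and 30.6 CPM. Phex, an endopeptidase of osteoblasts and osteocytes, was at 70.2 and 106 CPM against 4.27 and 3.67 CPM, but a count was seen in only 5 of 58 and 6 of 48 expressing wells.

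Of the 22 osteoblast markers 20 were tested and 0 passed. At least 2-fold higher in both animals were 11 of the 20, against 3.04% of all genes tested, and 0 were as much lower. In 15 both expressing sums lay above both silent sums, against 17.9% of all genes. The median log2 fold change was 2.84, against -0.06 over all genes tested. DESeq2 passed 8 of them as higher, against 0.425% of all genes with an adjusted p. The late markers did not all go along. Bglap, osteocalcin, was at 516 CPM in expressing and 26.0 CPM in silent wells of animal 1 but at 123 and 118 CPM in animal 2. Dmp1, a matrix protein of osteocytes, was at 186 and 9.5 CPM against 1.58 and 5.43 CPM. Mepe was at 0 in all 4 sums. Cthrc1, a secreted protein of osteoblasts and fibroblasts, was on the other side, at 934 and 549 CPM against 1232 and 929 CPM. Sgms2, a sphingomyelin synthase outside the list, was also among the 10 genes of smallest p, at 441 and 204 CPM against 70.1 and 47.7 CPM, with 26.7% of its expressing counts in 1 well.

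**Figure D2:**
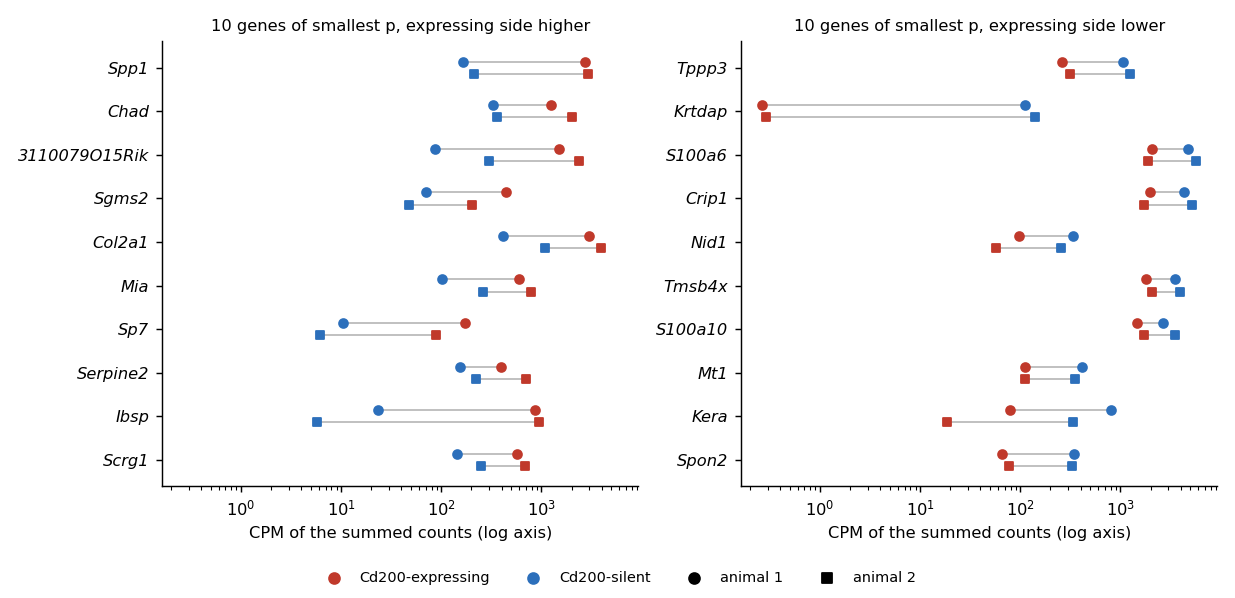
CPM of the summed counts on a log axis for the 10 genes of smallest p with the expressing side higher (left) and lower (right), in Cd200-expressing (red) and Cd200-silent (blue) wells of animal 1 (circles) and animal 2 (squares). Spp1 goes from 165 and 211 to 2733 and 2927 CPM, and Krtdap lies under 0.3 CPM in expressing wells. None of the 20 passed the adjusted p.

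Transcripts of cartilage matrix were also higher in the expressing wells, although the 4 cartilage genes of the rule kept strong cartilage cells out. Col2a1, the collagen of cartilage (chromosome 15, positions 97975602 to 98004695), was at 2979 and 3931 CPM against 417 and 1081 CPM, a log2 fold change of 2.33 ± 0.31 (edgeR, adjusted p = 0.787). It had a count in 97.4% to 100% of the wells of each group, and well medians were 109 and 346 CPM against 80.9 and 84.0 CPM, so the sums were carried by a minority of wells with much of it. Whether the low counts came from the sorted cell or from other material in the pooled library was not tested. Wells with 1000 CPM or more were 19 of 58 and 23 of 48 among the expressing and 12 of 152 and 35 of 174 among the silent. Chad, the leucine-rich protein chondroadherin that binds collagen in cartilage, was at 1244 and 2029 CPM against 329 and 359 CPM (log2 fold change 2.21 ± 0.21). Mia, a small secreted protein of chondrocytes, was at 595 and 785 CPM against 102 and 263 CPM. Scrg1, a small secreted protein first described in scrapie and made by chondrocytes, was at 569.7 and 691 CPM against 143 and 252 CPM. The transcript 3110079O15Rik was at 1503 and 2383 CPM against 86.9 and 302 CPM. Of 18 chondrocyte markers tested 0 passed, 10 were at least 2-fold higher in both animals against 3.04% of all genes, 0 were as much lower, and the median log2 fold change was 1.79. Sox9, the transcription factor of chondrocytes, was at 123 and 189 CPM against 67.9 and 82.1 CPM. Acan, aggrecan, showed little, at 120 and 93.7 CPM against 77.3 and 85.8 CPM, and Col10a1 and Ihh, genes of hypertrophic cartilage, were at or near 0 in both groups.

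The cartilage sum of the rule itself moved with the groups. It reached 1000 to 4000 CPM in 24.1% and 35.4% of the expressing wells but in 5.92% and 19.5% of the silent wells. Among wells with a cartilage sum under 1000 CPM, Col2a1 was still at 755 and 747 CPM in expressing wells against 175 and 192 CPM in silent wells, and Chad at 527.5 and 796 CPM against 256 and 268 CPM. Spp1 was at 3031 and 3715 CPM against 140 and 196 CPM in those wells, and Ibsp at 962 and 1092 CPM against 24.6 and 6.61 CPM. Spp1 and Ibsp were thus as large without the wells of an intermediate cartilage sum. Smpd3 was on the same side there but smaller in animal 2, at 180.0 and 106 CPM against 10.8 and 4.63 CPM, and Col2a1 and Chad were smaller and on the same side in both animals.

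Fibroblast transcripts were lower in expressing wells. Mfap5, a microfibril protein of connective tissue fibroblasts (chromosome 6, positions 122505845 to 122529290), was at 317 and 471 CPM against 1747 and 2255 CPM. At 1000 CPM or more were 7 of 58 and 7 of 48 expressing wells and 47 of 152 and 58 of 174 silent wells, while well medians were low in all groups, from 0 to 22.98 CPM. Tppp3, a tubulin-binding protein found in tendon sheath and other fibroblasts, had the smallest p of the genes on the lower side, at 263 and 312 CPM against 1050 and 1255 CPM (log2 fold change -1.99 ± 0.19, edgeR, adjusted p = 0.679). Igfbp6, a binding protein for insulin-like growth factors, was at 146 and 237 CPM against 605 and 771 CPM. Cd34, a sialomucin of stromal and endothelial progenitors, was at 62.6 and 111 CPM against 304 and 364 CPM. Ly6a, the surface antigen Sca-1, was at 216 CPM against 674 CPM in animal 1 and at 1.87 CPM against 1037 CPM in animal 2, where no expressing well exceeded 26.2 CPM. Of 21 fibroblast markers tested 0 passed, 13 were at least 2-fold lower in both animals against 6.14% of all genes, 0 were as much higher, and the median log2 fold change was -2.15. Some of these sums rest on few wells, as with Efemp1, a matrix glycoprotein with 96.7% of its expressing counts in 1 well. Wells with 100 CPM or more of Mfap5 made up 17.2% and 14.6% of expressing and 40.1% and 39.7% of silent wells, and the part of this difference in the other fibroblast genes was not tested. Pcolce2, an enhancer of procollagen processing, stood apart from the list at 83.6 and 112 CPM against 66.8 and 71.9 CPM.

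Tendon and ligament genes were divided. Tnmd, the membrane protein tenomodulin of mature tendon cells, was at 852 and 785 CPM against 2625 and 1695 CPM, and wells with 1000 CPM or more made up 12 of 58 and 11 of 48 expressing wells and 54 of 152 and 37 of 174 silent wells. The share thus differed in animal 1 and hardly in animal 2. Kera, the corneal and tendon proteoglycan keratocan, was at 79.0 and 18.4 CPM against 814 and 335 CPM, although 32.3% of its expressing counts lay in 1 well. Thbs4, a thrombospondin of tendon matrix, was at 17.7 and 52.5 CPM against 486 and 411 CPM. Fmod, fibromodulin, was close between groups at 673 and 801 CPM against 768 and 856 CPM, and Comp, cartilage oligomeric matrix protein, leaned the other way at 191 and 229 CPM against 136 and 149.9 CPM. Of the 15 tendon markers 5 were at least 2-fold lower in both animals and 0 higher, against 6.14% and 3.04% of all genes tested, with a median of -0.78.

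**Figure D3:**
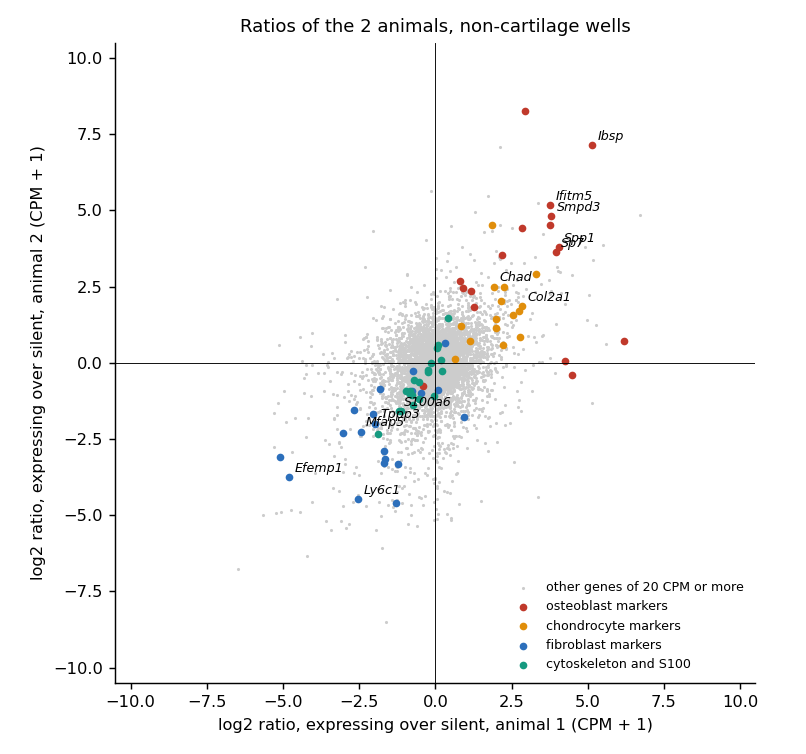
Log2 ratios of CPM + 1 (expressing over silent) in animal 1 and animal 2 for 6069 genes of 20 CPM or more, with 4 lists coloured. Osteoblast markers (red) and chondrocyte markers (orange) lie mostly in the upper right and fibroblast markers (blue) in the lower left, while most genes scatter around 0 with little relation between animals.

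Small calcium-binding and actin-regulating proteins were lower in expressing wells, among them some of the most abundant transcripts compared. S100a6, calcyclin (chromosome 3, positions 90612882 to 90624181), was at 2053 and 1876 CPM against 4699 and 5661 CPM, with well medians of 1373 and 1119 CPM against 4355 and 4223 CPM. Its log2 fold change was -1.38 ± 0.14 (edgeR, adjusted p = 0.679) and -1.19 on thinned wells, where it passed. Crip1, a LIM-domain protein, was at 1957 and 1719 CPM against 4319.6 and 5138 CPM, with well medians of 1224 and 982 CPM against 2746 and 3168 CPM. Tmsb4x, the actin-sequestering thymosin beta 4, was at 1814 and 2052 CPM against 3549.5 and 3903 CPM. Vim, the intermediate filament protein vimentin, was at 1655 and 1271 CPM against 2807.5 and 2677.5 CPM. Of 22 genes in this list 3 were at least 2-fold lower in both animals, against 6.14% of all genes. In 14 both expressing sums lay below both silent sums, against 21.0% of all genes, and the median was -0.61. Tpm1, a tropomyosin, was on the other side at 517 and 545 CPM against 384 and 194 CPM. Ribosomal protein genes were level, with a median of 0.02 over 22 genes and 0 at least 2-fold apart in both animals.

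Further genes were among the 10 of smallest p in their direction. Serpine2, an inhibitor of serine proteases, was at 394 and 697 CPM in expressing wells against 153 and 219.7 CPM in silent wells. On the lower side were Nid1, the basement membrane protein nidogen, at 97.9 and 57.0 CPM against 338 and 254 CPM, and Mt1, a metal-binding metallothionein, at 112 and 113 CPM against 413 and 350 CPM. S100a10, a partner of annexin A2, was at 1477 and 1703 CPM against 2647 and 3507 CPM. Krtdap, a secreted protein of keratinocytes, was at 0.266 and 0.288 CPM against 111 and 140 CPM, and was the lowest of these in expressing wells. Cst3, the protease inhibitor cystatin C, passed on thinned wells and by DESeq2 and is named for that, at 5520.2 and 5969 CPM against 2988 and 2614 CPM.

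The reporter's own driver did not separate the groups. Ctsk was at 289 and 172 CPM in expressing and at 286 and 228 CPM in silent wells, and 42 of 58 and 29 of 48 expressing wells had a count. Other transcripts of periosteum and stroma were lower in expressing wells, on values that did not pass. Ptn, the heparin-binding growth factor pleiotrophin, was at 319.7 and 241 CPM against 1195 and 1061 CPM, with well medians of 0 in both expressing groups and of 562 and 147 CPM in silent wells. Postn, the matricellular protein periostin named after periosteum, was at 922 and 473 CPM against 1678 and 1169.5 CPM. Aspn, the small leucine-rich protein asporin, was at 794 and 448 CPM against 1664 and 1332 CPM. Omd, osteomodulin, a related keratan sulfate proteoglycan of bone, lay on the opposite side at 1111 and 1527 CPM against 290.5 and 157 CPM. Over the list of 22 periosteal and progenitor transcripts tested, 1 was at least 2-fold higher and 4 at least 2-fold lower in both animals, with a median of -0.28. Among 21 progenitor surface genes 0 were at least 2-fold higher and 4 lower. The shares over all genes tested were 3.04% higher and 6.14% lower. Cd44, a hyaluronan receptor, was at 84.3 and 37.9 CPM against 246 and 242 CPM, and Itgav, the integrin alpha V chain used to enrich skeletal progenitors, was at 145 and 77.3 CPM against 113 and 113 CPM.

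Among signalling genes, single members lay apart in both animals. In the Wnt list 6 of 28 genes tested were at least 2-fold higher in both animals and 1 lower, against 3.04% and 6.14% of all genes tested, with a median of 0.44. Notum, a secreted enzyme that inactivates Wnt proteins, was at 15.7 and 28.1 CPM against 0.460 and 0.553 CPM, and Sfrp5, a secreted Wnt antagonist, at 36.5 and 78.9 CPM against 9.26 and 3.02 CPM. Ctnnb1, beta-catenin, was at 373 and 265 CPM against 218 and 184 CPM. In the hedgehog list of 11 genes, Ptch1, the receptor whose transcription follows pathway activity, was at 125 and 134 CPM against 56.9 and 28.3 CPM. Gas1, a co-receptor of hedgehog ligands, was on the other side at 84.6 and 50.2 CPM against 204 and 232 CPM. The BMP list had a median of -0.03 over 26 genes, with Fstl1, a secreted follistatin-like protein, at 1164 and 809 CPM against 2355 and 2247 CPM, and Id1, a target of BMP signalling, at 345 and 287 CPM against 77.3 and 216 CPM. In the Notch list, 0 of 7 genes tested were at least 2-fold apart in both animals, with a median of -0.57. Hes1, a target of Notch signalling, was at 266 and 313 CPM against 177 and 169.7 CPM, and Dlk1, a non-canonical ligand, at 118 and 108 CPM against 171 and 189 CPM. For growth factors, Igf1 was at 299 and 141 CPM against 531 and 601 CPM. The genes of the receptor for CD200, Cd200r1 and Cd200r4, were at 0 in all 4 sums, and Cd200r3 reached 0.805 CPM in silent wells of animal 2 alone.

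The list of fibrillar and basement collagens had a median of -0.05 over 22 genes, but its members were divided. Both expressing sums lay above both silent sums in 3 and below them in 7, against 17.9% and 21.0% of all genes. Col1a1, a chain of the main collagen of bone and tendon, was at 11035 and 8602 CPM against 9173 and 5414 CPM. Col3a1, a collagen of soft connective tissue, was at 3727 and 2869.5 CPM against 7117 and 4945 CPM, and all 3 chains of collagen VI in the list with high levels, Col6a1, Col6a2 and Col6a3, were lower in both animals. Of 24 cell cycle genes tested, 9 were at least 2-fold lower in the expressing wells of both animals and 0 higher, against 6.14% and 3.04% of all genes. The summed level of the whole list was nearly level, at 2212 and 2176 CPM against 2353 and 2356 CPM. Top2a, a topoisomerase of dividing cells, was at 14.4 and 3.17 CPM against 29.9 and 44.1 CPM, and Cdkn1a, the cell cycle inhibitor p21, was at 215 and 165 CPM against 65.3 and 94.9 CPM. Immediate-early and heat-shock genes, which also respond to tissue digestion, had a median of 0.62 over 23 genes, with both expressing sums above both silent sums in 13, against 17.9% of all genes. Fosb was at 259 and 377 CPM against 137 and 155 CPM, and Hspa1a, a stress chaperone, at 436 and 452 CPM against 195 and 197 CPM. The part of handling in the other values was not tested.

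**Figure D4:**
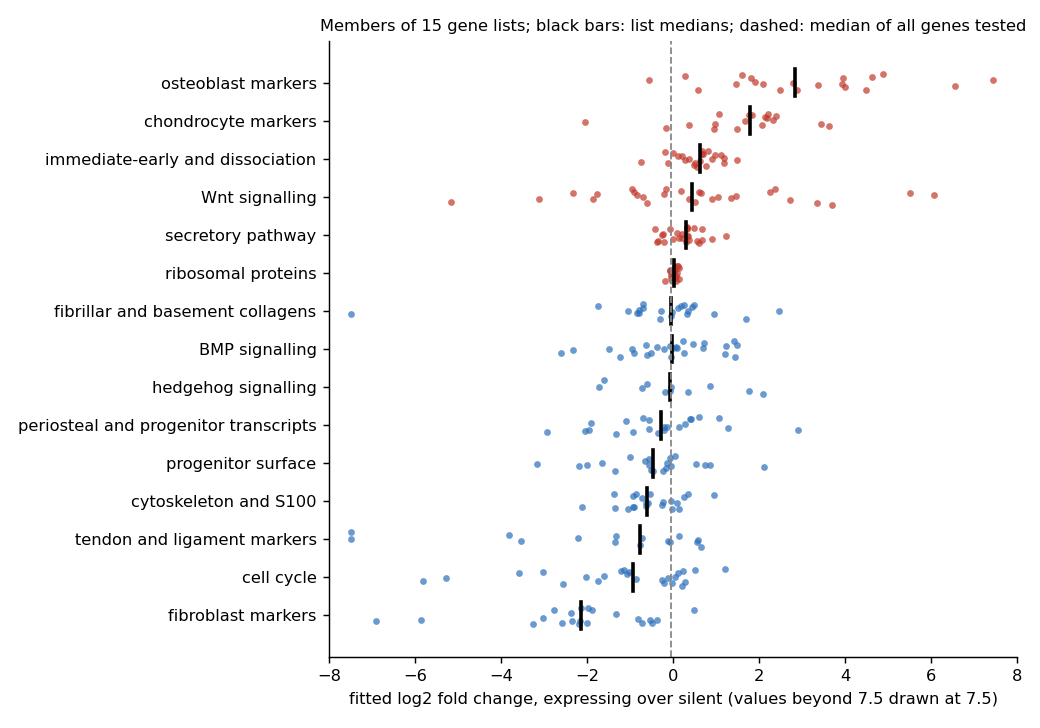
Fitted log2 fold changes (expressing over silent) of the tested members of 15 gene lists, 1 point per gene, with list medians as black bars and the median of all genes tested, -0.06, dashed. Osteoblast markers have the highest list median, 2.84, and fibroblast markers the lowest, -2.15, and no gene shown passed the adjusted p.

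Markers of other cell types a sort could let through were checked as whole lists. The 11 endothelial markers summed to 90.6 and 62.8 CPM in expressing and 156 and 120 CPM in silent wells, with Pecam1, Kdr and Emcn at 0 in the expressing sums. The 12 macrophage markers summed to 37.0 and 14.5 CPM against 7.49 and 8.96 CPM, with Ptprc at 0 in all 4 sums. Osteoclast markers summed to 95.5 and 189 CPM against 90.6 and 78.6 CPM, to which Mmp9, a gelatinase, gave 61.7 and 168 CPM against 36.7 and 29.9 CPM, and Calcr was at 0 throughout. The 13 mural cell markers summed to 1026 and 788 CPM against 910 and 607 CPM. Lymphoid and Schwann cell markers were under 1 CPM in expressing wells. Skeletal muscle markers summed to 45.9 CPM against 46.0 CPM in animal 1 and to 448 CPM against 45.8 CPM in animal 2, where Tnni2, a troponin, gave 433 CPM. The part of such cells in the results was not tested beyond these levels. No doublet search was run. Single cells were sorted, and whether any well held material of more than 1 cell was not tested.

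The share of Cd200-expressing wells differed by marker class. Classes were set by 4 limits on marker levels, and a well could belong to more than 1. Among wells with 1000 CPM or more of Ibsp and Bglap together, 9 of 13 in animal 1 (69.2%, exact 95% binomial interval 38.6% to 90.9%) and 10 of 12 in animal 2 (83.3%, 51.6% to 97.9%) expressed Cd200. Among wells with a Tnmd level of 1000 CPM or more the shares were 15.8% (12 of 76) and 22% (11 of 50). With Prg4 and Cytl1 together at 1000 CPM or more, a mark of articular surface cells, they were 15% (3 of 20) and 14.6% (6 of 41). With Mfap5 at 100 CPM or more they were 12.7% (10 of 79) and 8.86% (7 of 79). Wells in none of the 4 classes expressed Cd200 in 35.5% (27 of 76) and 26.1% (18 of 69). In both animals the bone class had the highest and the Mfap5 class the lowest share of those listed. This order restates the Ibsp and Mfap5 levels of the same wells, and wells are not replicates. The wells of a class share 1 animal and library, so these intervals say nothing of the spread between animals.

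**Figure D5:**
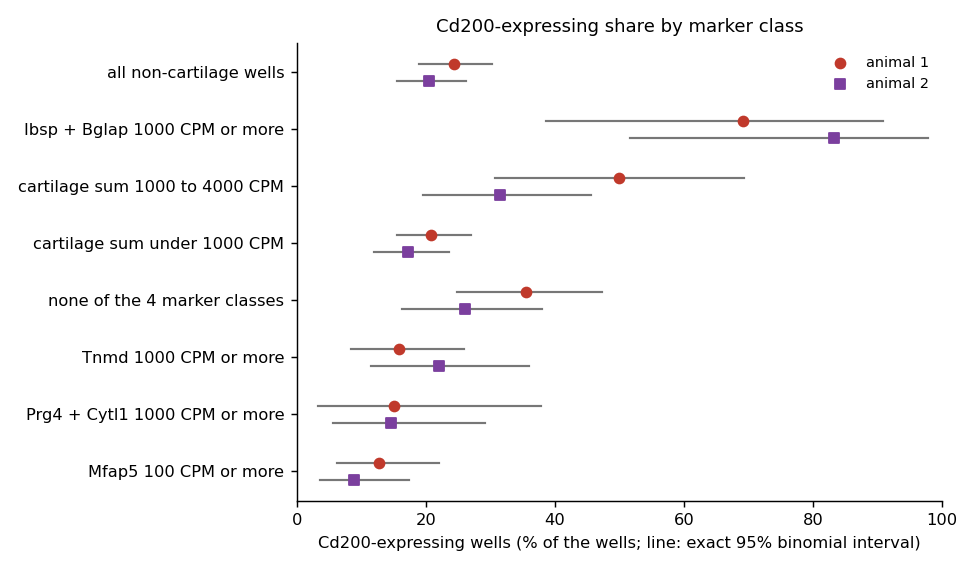
Share of wells with a Cd200 CPM of 50 or more in each marker class, animal 1 (circles) and animal 2 (squares), with exact 95% binomial intervals over wells. The bone class (Ibsp + Bglap) stands at 69.2% and 83.3% and the Mfap5 class at 12.7% and 8.86%.

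Most Cd200-expressing wells lay outside the bone class. That class held 15.5% and 20.8% of them, and the wells in none of the 4 classes 46.6% and 37.5%. Without the bone class, Spp1 was at 1143 and 2263 CPM against 97.1 and 153 CPM, and Sp7 at 122 and 26.4 CPM against 10.4 and 6.22 CPM. Ibsp, on which that class was set, was at 56.6 and 49.0 CPM against 1.99 and 1.26 CPM, so its fall was fixed by the limit. Col2a1 without the bone class was at 3218 and 3906 CPM against 421 and 1085 CPM, and Mfap5 at 406 and 588 CPM against 1767 and 2265 CPM. In wells that belonged to none of the classes and had a cartilage sum under 1000 CPM (18 and 10 expressing, 34 and 35 silent), Spp1 was at 1684 and 5851 CPM against 125 and 391 CPM, and S100a6 at 2082 and 1861 CPM against 3366 and 4510 CPM. Some contrasts were not kept there. Tmsb4x turned to 2840 and 3736 CPM against 2419 and 3051 CPM, and Alpl was at 204 and 236 CPM against 308 and 148 CPM. Tnmd was low in all 4 sums, from 52.2 to 172 CPM, but the limit of 1000 CPM on Tnmd fixed this in advance. Smpd3 was at 110.3 CPM against 0.569 CPM in animal 1 but at 16.8 against 18.6 CPM in animal 2, and Phex at 30.2 against 0.285 CPM and at 0 against 5.87 CPM. Mmp13, a collagenase, was at 227 against 304 CPM in animal 1 and at 389 against 37.3 CPM in animal 2, and Ptch1 at 62.2 against 84.3 CPM and at 182 against 63.8 CPM. Scrg1 was at 405 against 82.3 CPM in animal 1 and level in animal 2, at 330.3 against 329 CPM. Within the Tnmd class, expressing wells had 645 and 1864 CPM of Spp1 against 150 and 88.1 CPM, and 3944 and 3689 CPM of Tnmd against 7888 and 8237 CPM.

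The plate quadrant named in each well label gave a further split of the same wells. It was read only for chosen genes, and the share of all genes with such a pattern was not taken, so it is a description. Spp1, Ibsp, Sp7, Smpd3, Col2a1 and 3110079O15Rik were higher in the expressing wells of all 8 quadrants, and Mfap5, Tppp3, S100a6, Crip1, Ptn and Kera were lower in all 8. Runx2, Omd and Mia were also higher in all 8, as was Col1a1, whose sums lay closer together. Ly6a, Postn, Aspn, Col3a1 and Fstl1 were also lower in all 8. Chad was higher in 7 of 8, Alpl in 6 and Phex in 4, and Tmsb4x and Tnmd were lower in 7 of 8. The lowest ratio for Spp1 was in quadrant 2 of plate 47, at 829 CPM in 9 expressing wells against 263 CPM in 53 silent wells. The expressing share itself ran from 12.3% to 33.9% over the quadrants of plate 47 and from 14.3% to 26.4% over those of plate 48.

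By level of Cd200, the leading genes did not all form a series. Expressing wells were divided into 50 to 200 CPM (16 and 11 wells), 200 to 500 CPM (17 and 25) and 500 CPM or more (25 and 12). Chad went from 431 to 1148 to 1845 CPM in animal 1 and from 793 to 2035 to 3339 CPM in animal 2. Alpl and Crip1 ran against their group contrasts in both animals. Alpl, higher in expressing than in silent wells, fell from 246 to 170 to 87.2 CPM and from 286 to 200 to 122 CPM. Crip1, lower in expressing wells, rose from 1791 to 1937 to 2079 CPM and from 1167 to 1540 to 2643 CPM. Mfap5 was at 543, 504 and 37.5 CPM in animal 1 and at 287, 824 and 7.36 CPM in animal 2, so that the wells with most Cd200 had the least Mfap5 in both animals. Spp1 was at 989, 4065 and 2933 CPM and at 2290, 2324 and 4730.1 CPM, and Sp7 was highest in the first class in animal 1 and in the third in animal 2.

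Across all non-cartilage wells, 9 genes were among the 50 with the highest Spearman correlation to Cd200 in both animals, on log2(CPM + 1) over 239 and 234 wells. Smpd3 was first in each, at 0.32 and 0.43. Spp1 followed at 0.32 and 0.37, and 7530428D23Rik, a transcript with no gene name, at 0.29 and 0.32. The others were Omd, Sp7, Ibsp, Foxc2 (a forkhead factor of mesenchyme), Col24a1 (a collagen of developing bone) and Unc5b (a netrin receptor), between 0.23 and 0.33. Of the 9, 4 belong to the osteoblast list, which holds 20 of the 11140 genes tested. This ranking uses the same wells and Cd200 values that set the groups, so it is not separate support for the contrasts above. All values are weak, wells of 1 animal share a plate, and depth enters every pair of genes. In group sums, Col24a1 was at 163 and 77.0 CPM in expressing wells against 31.5 and 13.6 CPM, and Unc5b at 45.9 and 21.9 CPM against 6.37 and 2.52 CPM.

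The antigens that the study used to exclude cells were also read as transcripts. Any of Eng, Thy1 and Enpep reached 20 CPM in 24.1% of expressing wells in animal 1 (14 of 58) and 10.4% in animal 2 (5 of 48), and in 26.3% and 25.3% of silent wells. Thy1 was at 24.2 and 12.4 CPM in expressing wells against 72.8 and 65.5 CPM in silent wells, and reached 20 CPM in 8.62% and 4.17% against 17.8% and 18.4% of wells. Eng was at 18.1 and 4.03 CPM against 14.2 and 12.9 CPM, and Enpep at 5.46 and 11.9 CPM against 7.62 and 6.69 CPM, so neither had the same order in both animals.

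Leaving those wells out brought the transcript groups closer to the flow cytometry gate, although transcripts are not surface antigens. Here too 0 (0.0%) of 10221 genes passed edgeR's quasi-likelihood test, with 237 higher (2.32%) and 365 lower (3.57%) at an unadjusted p under 0.05. DESeq2 passed 106 higher (1.1% of 9626) and 140 lower (1.45%), and edgeR on thinned wells 76 higher (0.923% of 8231) and 88 lower (1.07%). At least 2-fold in both animals were 302 genes higher (2.95%) and 619 lower (6.06%). Both expressing sums lay above both silent sums in 1745 genes (17.1%) and below them in 2083 (20.4%). The fit of these wells had 1 residual degree of freedom and no in-between group, since only 8 such wells were left in animal 2. Spp1 again had the smallest p, at 3238 and 3142 CPM in expressing against 221 and 292 CPM in silent wells (log2 fold change 3.65 ± 0.18, edgeR, adjusted p = 0.352). Smpd3 was at 237 and 217 CPM against 17.9 and 9.19 CPM, Sp7 at 198 and 90.3 CPM against 11.98 and 6.73 CPM, and Ibsp at 1129 and 1006 CPM against 33.8 and 8.03 CPM. Chad was at 1467 and 2044 CPM against 336 and 501 CPM, and Col2a1 at 3425 and 4155 CPM against 403 and 1376 CPM.

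On the lower side of the second comparison stood members of the fibroblast, periosteal and tendon lists. Mfap5 was at 297 and 369 CPM against 977 and 1461 CPM, Ly6c1, a surface antigen of stromal and immune cells, at 14.7 and 23.1 CPM against 136 and 334 CPM, and Spon2, the matrix protein mindin, at 61.0 and 53.1 CPM against 384 and 344 CPM. Ptn was at 226 and 206 CPM against 1139 and 807 CPM, Postn at 688 and 372 CPM against 1881.5 and 1093.5 CPM, and Tnmd at 982 and 756 CPM against 2771 and 1861 CPM. Krtdap, Slurp1 and Ambn, genes of epithelia, were at under 0.35 CPM in expressing wells, and 64.8% of the Ambn counts of silent wells came from 1 well. Osteoblast markers had 11 of 18 tested genes at least 2-fold higher in both animals and 0 lower, with a median of 2.53 against -0.07 for all genes. Chondrocyte markers had 8 of 18 higher and 0 lower, with a median of 1.80, and fibroblast markers 0 higher and 13 of 21 lower, with a median of -1.85. Tendon markers had 0 of 15 higher and 6 lower, with a median of -1.27, and periosteal and progenitor transcripts 1 of 20 higher and 5 lower, with a median of -0.33. The Wnt list had 5 of 24 higher and 1 lower, but its median was -0.10, where the first comparison had 0.44. Over all genes tested 2.95% were as much higher and 6.06% as much lower. The silent wells of this comparison had less Mfap5 and Ly6a than those of the first, with Ly6a at 241 and 747 CPM in place of 674 and 1037 CPM, and both were still lower in the expressing wells. Whether the 2 comparisons differ was not tested, since they share most wells.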

How the data were processed

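The authors deposited 1 table of whole-number counts for 24866 genes in 658 wells. Per the submitters' processing notes it was made with CASAVA against mm10, while aligner, counting tool, annotation, strand and duplicate handling are items not given in the sources used here. Nonzero values had a median of 18, so counts were not read as molecules. Kept wells held 9767 to 675621 counts. The members, gene lists and tests were chosen with earlier results of these data known.

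Counts were summed per animal and Cd200 group and fitted with edgeR 4.0.16 (R 4.3.3; glmQLFit, TMM, animal as a block, Benjamini-Hochberg). The first fit held 3 groups (6 sums), the second 4 sums. Genes tested passed filterByExpr and had a count in at least 10 wells. Cd200, Ucma, Matn3, Col9a1, Lect1 and mitochondrial genes were left out, and Eng, Thy1 and Enpep too in the second comparison. Levels are CPM of the summed counts, so deeper wells weigh more; ratios use CPM + 1. The sums of 2 littermates are the replicates, and each animal filled 1 plate. The block takes out the level of each animal, so p-values measure how far the group contrasts vary between these 2. In the first fit the in-between sums enter that spread. By edgeR's quasi-likelihood test 353 genes had an unadjusted p under 0.05 with them and 780 with only the 2 groups compared. The block follows the labels: both groups of a number come from the same animal. Alternatives used DESeq2 1.42.0, other limits, thinning to 20000 counts, and groups left out. As none passed, named genes are the 10 of smallest p in each direction and, per list, up to 4 of smallest p; further list members and genes named for their place in a pathway were chosen after their values were seen. Steps were tested on simulated data with Python 3.11.15 and R. Positions are from GENCODE vM21 on GRCm38.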

Additional observations from a re-analysis of the deposited data

How the results depend on the processing

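In the first comparison 0 genes passed in the edgeR fit as described, with DESeq2 size factors, without a filter on low counts, with only the 2 groups compared, with cartilage wells added, with a Cd200 limit of 20 CPM, in wells of at least 50000 counts, with a cartilage sum under 2000 or 1000 CPM, without Mfap5, Tnmd or Ibsp and Bglap wells, in wells below all 4 marker limits (an alternative chosen after seeing the data), and with any of the 4 sums left out (0 to 0). It was 111 by DESeq2's Wald test, 18 on wells thinned to 20000 counts, and 1, Spp1, without the animal block (no pairing), with a Cd200 limit of 200 CPM and without Prg4 or Cytl1 wells. In the second comparison it was 246 by DESeq2 and 164 on thinned wells, where 1 residual degree of freedom leaves the spread to be borrowed from other genes. It was 0 under the other alternatives, including no replicate block (0), and the fit with only the 2 groups is the main one there. Leaving out a sum leaves no residual degrees of freedom there, so it was run with the in-between wells added, chosen after seeing the data: 1 to 5 genes passed, and Spp1 was among them each time. A lone sum is then assumed to vary like the other groups. The expressing share of animal 1 was 17.6% at a limit of 200 CPM.

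Of 39 genes followed in the first comparison 6 changed sign under at least 1 alternative, and of 20 in the second 2 did. The cause was not tested. Eng turned to 0.12 on thinned wells and ran from -1.95 to 0.60 with a sum left out, positive without the expressing sum of animal 2. Enpep turned to -0.60 at a limit of 200 CPM, -0.10 without Mfap5 wells and -0.17 without Prg4 or Cytl1 wells, and ran from -2.98 to 2.63 with a sum left out, -0.06 among them. Ctsk turned to 0.013 with a cartilage sum under 1000 CPM and 0.15 without Tnmd wells, and ran from -0.61 to 0.29, positive without the silent sum of animal 2. Tnmd turned to 0.61 without Tnmd wells, where the limit was set on Tnmd itself. In wells below all 4 limits, of which 1 is on Tnmd, Tnmd was 0.023, Tmsb4x 0.22 and Alpl -0.0012. In the second comparison, with a sum left out and the in-between wells added, Mfap5 ran from -4.22 to 0.71 and Spon2 from -5.22 to 0.060, both positive without the silent sum of animal 2. Genes seen in few wells, such as Eng, Enpep and Phex, have sums that depth and single wells limit.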
